A study of Mus musculus with 2 samples.

Results

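The genes described here are the chemokines of the mouse and their receptors, in RNA of cells sorted from the mammary gland and labelled as basal. Members were chosen by symbol: every CC, CXC, CX3C and XC chemokine, the G protein-coupled chemokine receptors, and the atypical receptors Ackr1 to Ackr4 and Ccrl2. The rule matched 65 symbols of the GENCODE M21 annotation, and 63 of them had a transcript in the deposited tables, out of 54438 genes with a listed transcript. Of these 63 genes, 40 encode ligands and 23 encode receptors. Ccl21c and Ccl27 match the rule and were not analysed here.

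The series holds 2 libraries, W1 and W2, named after their titles. Both are labelled as wild type C57BL/6 mice, 8 weeks of age, with no treatment beyond cell preparation. The title names Smart-seq II, which copies whole transcripts from few cells, and the protocol names a stranded library kit. The study concerns Pd-l1 positive and negative basal cells, but apart from the titles the labels of the 2 libraries are the same. Neither library could be placed in a Pd-l1 class, so the values describe 2 single libraries side by side. There is no replicate and no test. The sources used here give neither the number of mice behind a library nor the antibodies of the sort.

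Chemokines are small secreted proteins that set the direction in which leukocytes crawl. They bind heparan sulfate on cell surfaces and in matrix, and act on receptors that couple to inhibitory G proteins. Atypical receptors bind chemokines without that coupling and take them up or carry them across cells, which shapes the gradients that signalling receptors read. In the mammary gland, chemokines are known from epithelium, stroma and vessels, where they draw in macrophages, eosinophils and lymphocytes. In lymphatic vessels, Ccl21 guides cells that carry Ccr7.

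Levels are TPM, a share of all transcripts that is corrected for transcript length, and a gene's level is the sum over its listed transcripts. Counted reads recovered from the deposited values came to 3055838 in W1 and 3800028 in W2. Intervals are exact 95% Clopper-Pearson intervals on the ratio of a gene's summed reads, scaled to TPM. Where reads lay on transcripts of different length, that ratio differs from the ratio of TPM. A library with 0 reads was given a floor of 3 reads in that library. A fold given as at least a value uses that floor and takes the reads of the other library as exact, so it is not a 95% bound. The intervals and the floor cover counting error only. Markers of the labelled cell type were at low levels in W1: 8 basal epithelial markers, among them Krt5, Krt14 and Acta2, summed to 6.62 TPM in W1 and 33369 TPM in W2, with Krt5, Cnn1, Myh11 and Trp63 at 0 in W1 and Trp63 also at 0 in W2. The 10 endothelial markers, such as Cldn5 and Cdh5, summed to 4711 TPM in W1 and 7.07 TPM in W2, where 8 of the 10 were at 0. The 8 luminal epithelial markers, such as Krt8 and Epcam, summed to 32.0 TPM in W1 and 4346 TPM in W2, with 3 at 0 in each library. The 7 fibroblast markers summed to 3.19 TPM in W1, with 5 at 0, and 206 TPM in W2, with 1 at 0. Across 24 leukocyte markers the sums were 91.4 TPM in W1, with 16 at 0, and 7.17 TPM in W2, with 22 at 0; Lyz2 (46.6 TPM in W1) and Cd79a (32.8 TPM in W1) held most of the sum in W1.

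Reads were found on 28 of the 63 members: on 22 in W1, on 15 in W2, and on 9 in both. Over all protein-coding genes, 10573 of 21939 (48.2%) had reads in at least 1 library. The share of all genes read in both libraries is not given here, so the overlap of members is a description. A level of 1 TPM or more in at least 1 library was reached by 21 members, and these were compared. A gene was called higher in a library at 2-fold or more on the scale of TPM + 1. By that rule 9 of the 21 members (42.9%) were higher in W1, where 34.7% of all 12587 compared genes were, and 9 (42.9%) were higher in W2, against 32.9% of all compared genes. The remaining 3 were Ccl21a, Ackr4 and Cxcr4. The median log2 ratio of the 21 members was 0.43, beside -0.07 for all genes compared; with a filter of 20 reads in at least 1 library, the medians were -0.41 for members and -0.25 for all genes. A member seen in a single library had to differ to pass the filter, so these counts are a description. In such RNA, fewer cells of a type and less RNA per cell cannot be told apart.

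**Figure D1:**
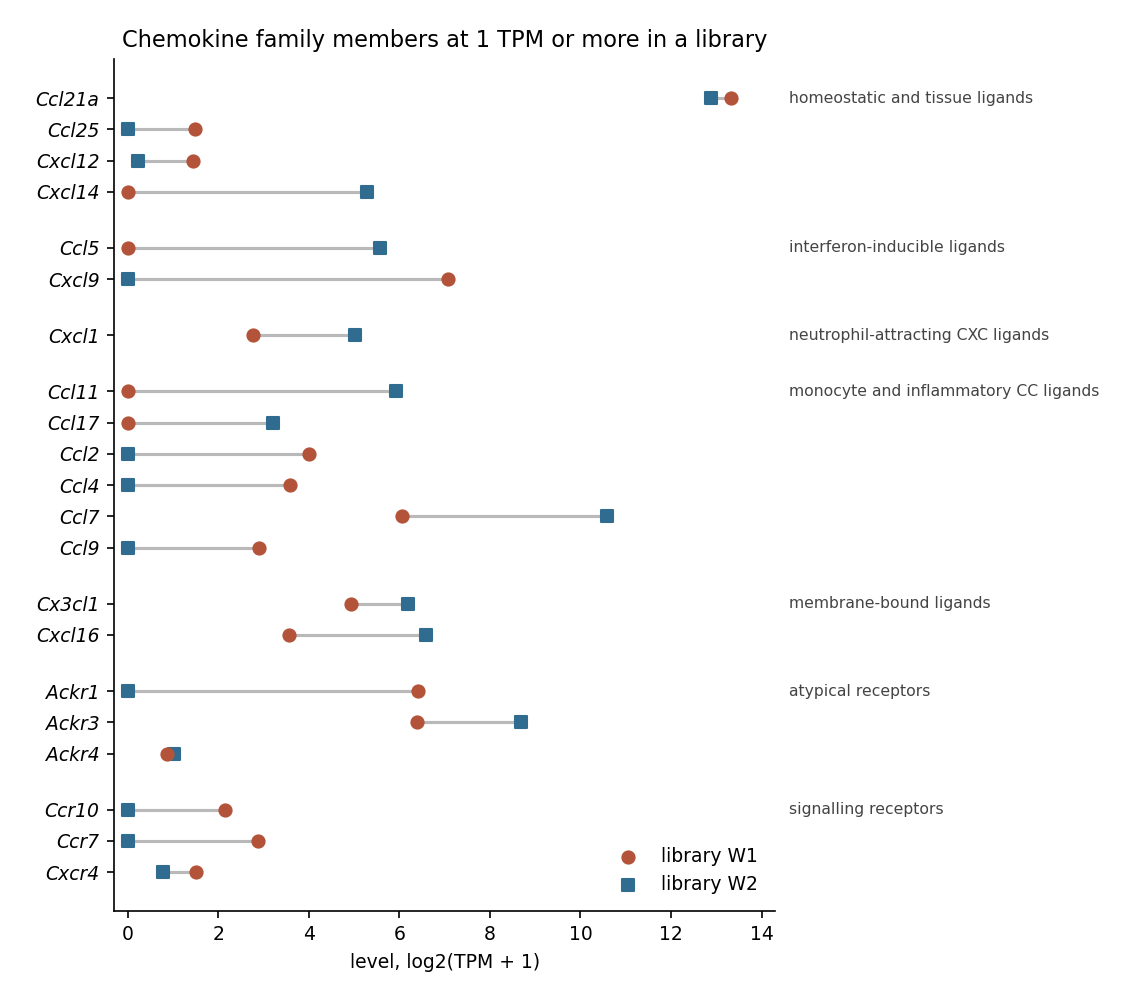
Level of each of the 21 compared members as log2(TPM + 1) on the horizontal axis, with W1 as circles and W2 as squares, grouped by role; each point is 1 library and there are no error bars. Ccl21a stands far to the right in both libraries, while Cxcl9 and Ackr1 stand at 0 in W2, and Ccl11, Ccl5 and Cxcl14 stand at 0 in W1.

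**Figure D2:**
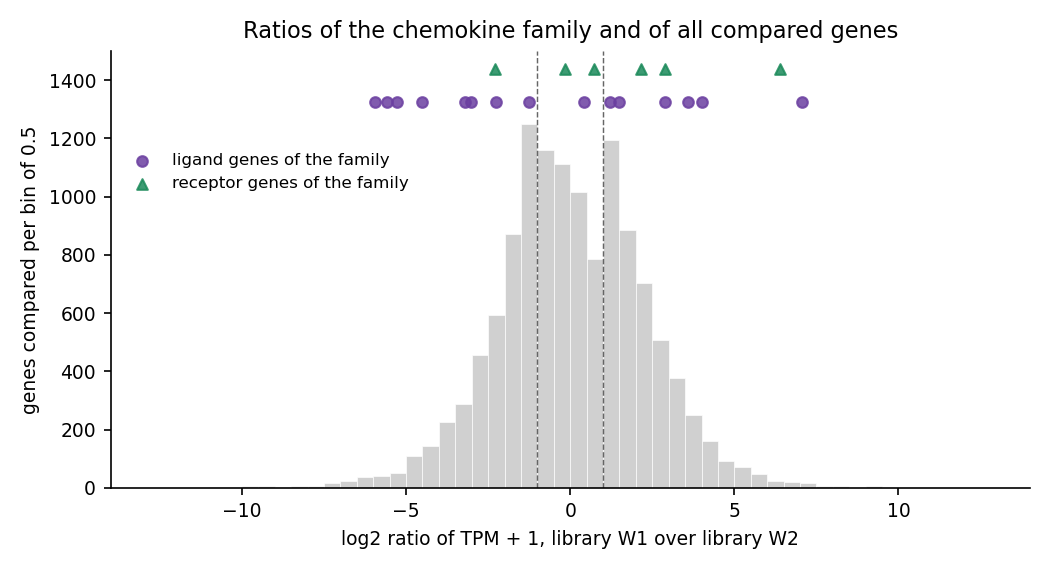
Log2 ratio of TPM + 1, W1 over W2, on the horizontal axis: grey bars count all 12587 compared genes in bins of 0.5, and symbols above them mark the 15 ligand genes and 6 receptor genes compared. Dashed lines mark the 2-fold rule, and the members spread from -5.94 for Ccl11 to 7.06 for Cxcl9.

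Ccl21a was the member with the highest level in both libraries. It encodes the Ccr7 ligand that lymphatic endothelium and lymph node stroma display. The gene (ENSMUSG00000094686.1, chromosome 4, 42772860 to 42773993, minus strand, GRCm38) reached 10177 TPM in W1 and 7543 TPM in W2, from 26828 and 20018 reads. The level in W1 was 1.35-fold that in W2 (interval 1.32 to 1.37), which is within the 2-fold rule. Without Ccl21a, the levels of the other 62 members summed to 464 TPM in W1 and 2309 TPM in W2. Apart from Ccl21a, the 7 listed markers of lymphatic endothelium summed to 2963 TPM in W1 and 536 TPM in W2, where Lyve1, Prox1, Flt4, Thy1 and Mmrn1 were at 0 and Pdpn (438 TPM in W1, 531 TPM in W2), which epithelial basal cells also express, held nearly all of the sum. The part of lymphatic cells in the Ccl21a level was not tested.

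The mouse genome carries near-identical copies of Ccl21a, so its value cannot be assigned to that locus alone. Over the 402 bases of the coding length, Ccl21b and the predicted genes Gm10591, Gm13304 and Gm21541 each differed from Ccl21a at 2 bases (99.5% identity), by the substitutions T84A and C194T, counted from 1 at the first base of the start codon. The stretch from base 164 to base 224 is shown for Ccl21a and Ccl21b because it holds 1 of the bases by which a read can tell them apart, here in a capital letter; the sequences are from the GENCODE M21 transcripts.
Ccl21a (coding bases 164 to 224): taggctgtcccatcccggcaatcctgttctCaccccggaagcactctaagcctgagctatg
Ccl21b (coding bases 164 to 224): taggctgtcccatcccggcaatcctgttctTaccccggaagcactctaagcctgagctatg
Of the 821 stretches of 50 bases (50-mers) in the Ccl21a transcript, 233 occur in no other listed transcript. None of the 353 50-mers of Ccl21b is its own, and the gene is listed at 0 in both libraries. Gm10591 shares all of its 353 50-mers with Ccl21b and had 163 reads in W1 and 68 in W2. Gm13304 had 0 reads in both libraries, and Gm21541 had 2 in W1 and 0 in W2. The sum of Ccl21a and these copies is therefore better defined than the split among them.

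The other tissue-resident ligands were low or lay on opposite sides. Cxcl14, a chemokine that epithelia make constitutively (ENSMUSG00000021508.11, chromosome 13, 56288643 to 56296551, minus strand), had 0 TPM in W1 and 38.0 TPM in W2, from 0 and 212 reads. With the floor of 3 reads in W1, the level in W2 was at least 70.2-fold higher. The basal, luminal and fibroblast markers given above were higher in the same library, and their part in this value was not tested. Cxcl12, the ligand of Cxcr4 and Ackr3, stood at 1.70 TPM in W1 and 0.175 TPM in W2, with 29 reads and 1 read. That is a 9.72-fold ratio of TPM toward W1. The reads lay on different transcripts, of 5627 bases in W1 and 1878 bases in W2, both annotated as coding. The interval of 4.84 to 1192 is on reads and is not an interval of that ratio. With a pseudocount of 5 TPM, the log2 ratios of Cxcl12 (0.37) and Ccl25 (0.44) lay within the 2-fold rule. Ccl25, the Ccr9 ligand known from thymus and gut, had 6 reads in W1 (1.79 TPM) and 0 in W2. All 6 fell on a transcript annotated for nonsense-mediated decay, and the gene overlaps Elavl1 on the other strand, so the source of these reads is uncertain. Ccl27b had 0 reads in W1 and 1 read in W2, and Ccl27a, Ccl28, Cxcl13, Cxcl17 and Ccl19 were listed at 0 in both libraries.

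The 0 on Ccl19, the other Ccr7 ligand, says little about its level. Its coding transcripts have 0 of 696 and 135 of 724 50-mers of their own. That count also leaves out 50-mers shared between transcripts of Ccl19 itself. Copies of the gene elsewhere on chromosome 4 did hold reads in W2. The unprocessed pseudogene Gm12407 (41791989 to 41793601), which shares 199 of its 275 50-mers with Ccl19, had 0 reads in W1 and 641 in W2 (649 TPM). Ccl19-ps3, which shares all 275, had 1 read in W1 and 134 in W2. Gm2564, with 475 shared 50-mers, had 0 reads in W1 and 8 in W2. Whether the RNA came from Ccl19 or from a copy was not tested.

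Ligands known to be induced by interferons were split between the libraries. Cxcl9, which attracts activated T cells through Cxcr3 (ENSMUSG00000029417.9, chromosome 5, 92321347 to 92328079, minus strand), had 133 TPM in W1 and 0 TPM in W2, from 1163 and 0 reads. The level in W1 was at least 390-fold higher, the farthest of the 21 members toward that library. Its transcript has 2629 50-mers of its own. Ccl5, a ligand of Ccr1 (ENSMUSG00000035042.2, chromosome 11, 83525778 to 83530518, minus strand), had the reverse pattern, with 0 TPM in W1 and 46.8 TPM in W2, from 0 and 76 reads. Its level in W2 was at least 25.2-fold higher. Cxcl10, which shares Cxcr3 with Cxcl9, had 4 reads in W1 and 0 in W2. These lay on a retained-intron transcript, and its coding transcripts have 45 and 7 50-mers of their own. Cxcl10 also overlaps Art3 on the other strand, and Art3 had 4121 reads in W1 and 39 in W2. Cxcl11, annotated in M21 as a polymorphic pseudogene, was listed at 0 in both libraries. Endothelial markers (4711 TPM in W1 and 7.07 TPM in W2) and leukocyte markers (91.4 TPM in W1 and 7.17 TPM in W2) were higher in the same library as Cxcl9, and their part in its level was not tested.

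Of 13 CC ligands grouped as monocyte-attracting or otherwise inflammatory, 7 had reads. Over all protein-coding genes, 48.2% had reads in at least 1 library. Ccl7, a ligand of Ccr1, Ccr2 and Ccr3 (ENSMUSG00000035373.2, chromosome 11, 82045712 to 82047525, plus strand), stood at 65.9 TPM in W1 and 1545 TPM in W2, from 160 and 3776 reads. Its level in W2 was 23.4-fold higher (interval 20.01 to 27.6). Ccl7 has 1 listed transcript with 752 50-mers of its own, so no other isoform could take its reads. Ccl11, the eosinophil attractant eotaxin, had 0 reads in W1 and 199 in W2 (60.3 TPM), at least 65.9-fold higher in W2. Ccl17, a Ccr4 ligand, had 0 reads in W1 and 13 in W2 (8.29 TPM), at least 4.30-fold higher in W2. Basal markers (6.62 TPM in W1 and 33369 TPM in W2), luminal markers (32.0 TPM in W1 and 4346 TPM in W2) and fibroblast markers (3.19 TPM in W1 and 206 TPM in W2) were higher in the same library as Ccl7, Ccl11 and Ccl17, and their part in these levels was not tested.

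In the other direction, Ccl2, the monocyte attractant that acts through Ccr2, had 50 reads in W1 (15.1 TPM) and 0 in W2, at least 16.8-fold higher in W1. All 50 reads lay on a retained-intron transcript. The coding transcript, which has 91 50-mers of its own among 764, was listed at 0 in both libraries, so the level of spliced Ccl2 is not given by these data. Ccl9, a mouse chemokine that acts through Ccr1, had 59 reads in W1 (6.48 TPM) and 0 in W2, at least 19.8-fold higher in W1. Ccl4, a chemokine made by macrophages and lymphocytes, had 22 reads in W1 (11.001 TPM) and 0 in W2, at least 7.38-fold higher in W1. Ccl20, the Ccr6 ligand, had 2 reads in W1 and 0 in W2. Endothelial markers (4711 TPM in W1 and 7.07 TPM in W2) and leukocyte markers (91.4 TPM in W1 and 7.17 TPM in W2) were higher in W1 as well, and their part in the levels of Ccl2, Ccl4 and Ccl9 was not tested. Ccl3, Ccl6, Ccl8, Ccl12, Ccl22 and Ccl24 were listed at 0 in both.

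Both ligands that are made as membrane-anchored proteins on a mucin stalk were higher in W2. Cxcl16, the Cxcr6 ligand (ENSMUSG00000018920.11, chromosome 11, 70453983 to 70459984, minus strand), had 10.9 TPM in W1 and 94.9 TPM in W2, from 84 and 777 reads. That is an 8.72-fold higher level in W2 (interval 7.33 to 11.6). Cxcl16 overlaps Zmynd15 on the other strand, which had 47 reads in W1 and 315 in W2; the library kit is stranded per the labels, but strand use in counting is not stated. Cx3cl1, or fractalkine, the Cx3cr1 ligand (ENSMUSG00000031778.13, chromosome 8, 94772009 to 94782427, plus strand), stood at 29.7 TPM in W1 and 72.6 TPM in W2, from 266 and 734 reads. Its summed level was 2.44-fold higher in W2, with an interval on reads of 2.38 to 3.17. On the FPKM scale its log2 ratio was -0.96, within the 2-fold rule. On its main coding transcript, the levels were 25.98 TPM in W1 and 72.6 TPM in W2. Basal, luminal and fibroblast markers were higher in W2 as well, and their part in the levels of Cxcl16 and Cx3cl1 was not tested.

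Of the CXC ligands that attract neutrophils through Cxcr2, a single member had reads. Cxcl1 (ENSMUSG00000029380.11, chromosome 5, 90891241 to 90893115, plus strand) had 5.82 TPM in W1 and 31.7 TPM in W2, from 33 and 181 reads, a 5.45-fold higher level in W2 (interval 3.74 to 8.15). All of these reads were on a retained-intron transcript, which has 1066 50-mers of its own, while the coding transcript, with 148, was listed at 0 in both libraries. Cxcl2 has at most 113 50-mers of its own in a transcript, and Cxcl5 at most 384, so their listing at 0 is weak evidence on their level. Cxcl15, with 2064, and the platelet chemokine Ppbp, with 1034, were also at 0. Cxcl3 was at 0 as well, but its 2529 own 50-mers lie on a retained-intron transcript. The coding transcript of Cxcl3 has 120, so that 0 is weak evidence too. Pf4, another platelet chemokine, had 1 read in W1 and 0 in W2. Ccl1, Ccl26 and Xcl1, which belong to none of these groups, were listed at 0 in both libraries.

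The chemokine genes of the mouse lie in clusters, and in both clusters on chromosome 11 members of opposite sides lay next to each other. In the Ccl2 cluster on chromosome 11, Ccl7 starts 10.1 kb from the start of Ccl2 and Ccl11 starts 22.3 kb from it. Ccl2 was read in W1 and not in W2, Ccl11 in W2 and not in W1, and Ccl7 in both. All reads of Ccl2 lay on a retained-intron transcript. With protein-coding transcripts only, Ccl2 has no value, and this cluster then has no member higher in W1. Ccl12, Ccl8 and Ccl1 farther along were listed at 0. In the Ccl5 cluster on the same chromosome, Ccl5 was read in W2 and not in W1, while Ccl9 and Ccl4, 47.1 and 136.8 kb away, were read in W1 and not in W2. On chromosome 5, Cxcl1 was read in both libraries among 7 clustered genes, and Cxcl9 was read in W1 beside Cxcl10 and Cxcl11. Cx3cl1 lies between Ccl22 and Ccl17 on chromosome 8, and both Cx3cl1 and Ccl17 were higher in W2. Of the receptor genes on chromosome 9, Ccr9, Cxcr6, Xcr1, Ccr1, Ccr3 and Ccr2 were listed at 0 in both libraries.

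**Figure D3:**
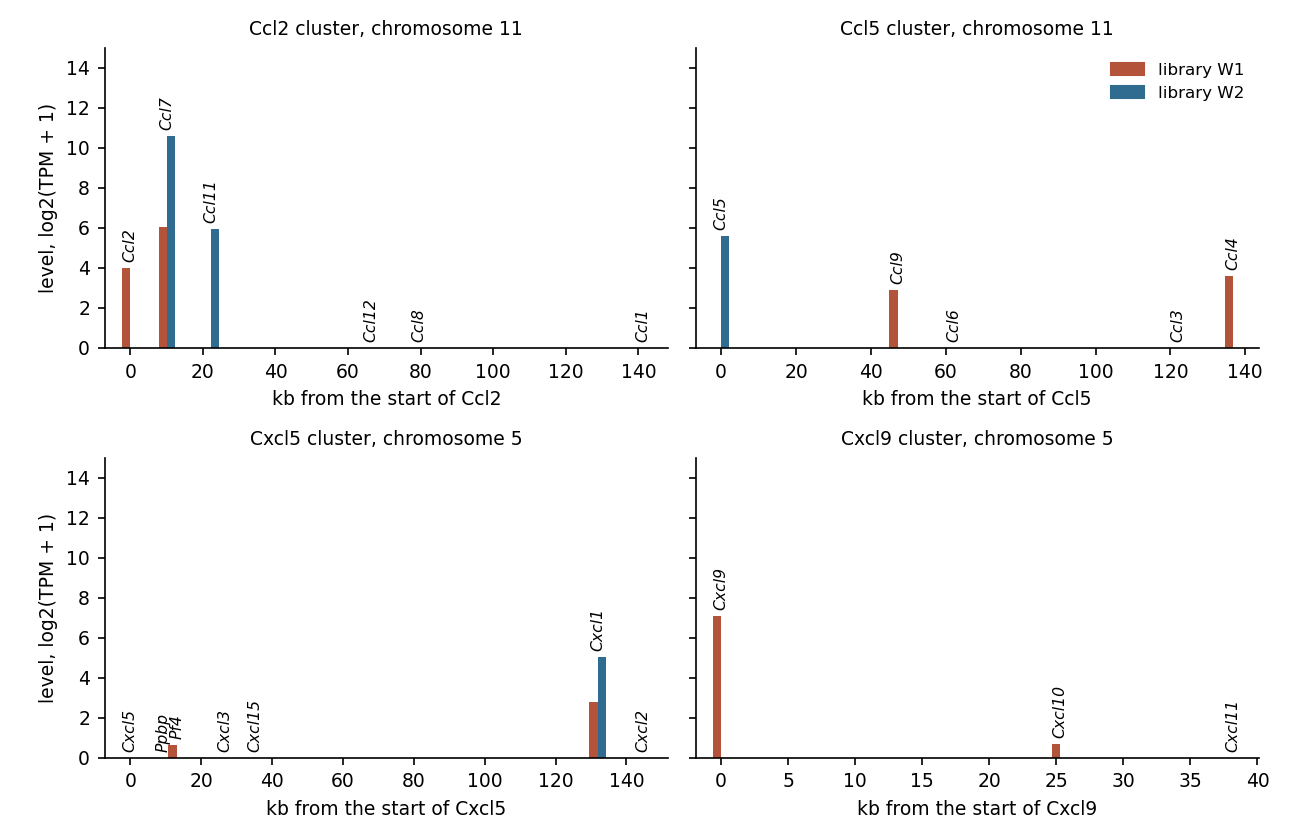
Level as log2(TPM + 1) on the vertical axis for the genes of 4 chemokine clusters, placed by the distance of their start in kb from the leftmost gene; the left bar of each pair is W1 and the right bar W2, with 1 library per bar. Bars of both libraries occur within the Ccl2 and Ccl5 clusters, and the Cxcl9 cluster has bars of W1.

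All 5 atypical receptors had reads, and the pair with most of them lay on opposite sides. Ackr1, which carries chemokines across the endothelium of venules (ENSMUSG00000037872.5, chromosome 1, 173331886 to 173333750, minus strand), had 83.6 TPM in W1 and 0 TPM in W2, from 292 and 0 reads. Its level in W1 was at least 98.0-fold higher. The endothelial markers given above were higher in the same library, and their part in this value was not tested. Ackr1 shares 238 50-mers with Cadm3, which it overlaps on the same strand, and Cadm3 had 6 reads in W1 and 0 in W2. Ackr3, the scavenger of Cxcl12 (ENSMUSG00000044337.5, chromosome 1, 90203980 to 90216751, plus strand), stood at 83.3 TPM in W1 and 409 TPM in W2, from 774 and 3754 reads. That is a 4.90-fold higher level in W2 (interval 4.46 to 5.21). It has 2981 50-mers of its own and was the receptor gene with the highest TPM of the family in W2.

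Ackr4, which scavenges Ccl19, Ccl21 and Ccl25, stood at 0.829 TPM in W1 and 1.03 TPM in W2, from 6 and 7 reads. The interval on reads, 0.240 to 2.999 for W1 over W2, spans no difference. The 6 reads lay on a different coding transcript from the 7, and with the highest transcript only the log2 ratio was -1.02. Ackr2, a scavenger of inflammatory CC chemokines, had 2 reads in W1 and 0 in W2, and Ccrl2, which binds the attractant chemerin, had 0 reads in W1 and 2 in W2.

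Signalling receptors were nearly absent from the counted reads. Of 18 such genes, 4 had reads, 70 in all in W1 and 4 in W2. Over all protein-coding genes, 48.2% had reads in at least 1 library. Ccr7, the receptor of Ccl19 and Ccl21 on dendritic cells and lymphocytes (ENSMUSG00000037944.8, chromosome 11, 99144196 to 99155077, minus strand), had 38 reads in W1 (6.34 TPM) and 0 in W2, at least 12.8-fold higher in W1. Ccr10, the receptor of Ccl27 and Ccl28, had 18 reads in W1 (3.44 TPM) and 0 in W2, at least 6.04-fold higher in W1; it overlaps Cntnap1 on the other strand, which had 5 reads in W1 and 0 in W2. With a pseudocount of 5 TPM, the log2 ratio of Ccr10 was 0.76, within the 2-fold rule. Cxcr4, the signalling receptor of Cxcl12, had 10 reads in W1 (1.83 TPM) and 4 in W2 (0.726 TPM). That ratio of 2.52 has an interval of 0.726 to 10.99, so no difference was detectable at this depth. Cxcr3, the receptor of Cxcl9, had 4 reads in W1 and 0 in W2. Ptprc, the pan-leukocyte marker Cd45, had 6 reads in W1 and 0 in W2, and the part of leukocytes in these receptor values was not tested.

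The other 14 signalling receptors, among them Ccr1, Ccr2, Ccr3, Ccr4, Ccr6, Ccr8, Ccr9, Cxcr1, Cxcr2, Cxcr5, Cxcr6, Cx3cr1 and Xcr1, were listed at 0 in both libraries. Of them, 10 have a transcript with over 500 50-mers of its own, so reads on that transcript could have been counted. For Cx3cr1 (740) and Cxcr2 (746) that is a single coding transcript. Their other coding transcripts have at most 9 and 42, so their listing at 0 is weaker evidence. These counts also leave out 50-mers shared between transcripts of the same gene. Xcr1 has 4341 on its coding transcript. Ccr9 has 4672 on a retained-intron transcript and at most 921 on a coding one. Cxcr6, with 80, is among the 4 without a transcript of over 500. Over the whole family, 19 of the 40 members with more than 500 such 50-mers had reads (47.5%), beside 8891 of 15268 protein-coding genes (58.2%). Among the 23 members without such a transcript, 9 had reads. A count of 0 still allows up to 3 reads at this depth and does not show that a gene is silent.

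**Figure D4:**
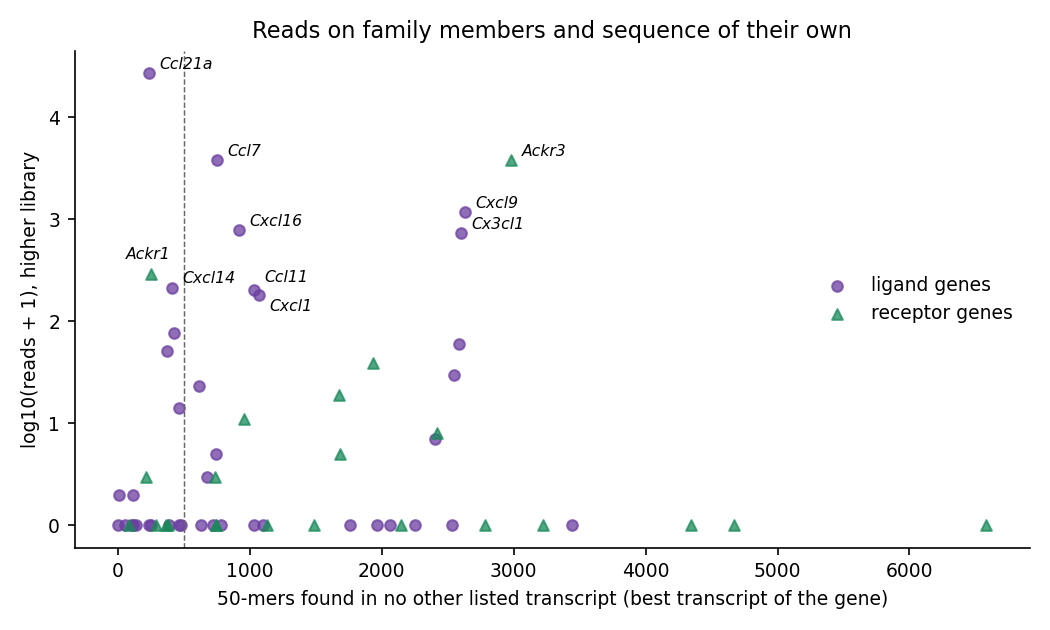
For each of the 63 members, the number of 50-mers found in no other listed transcript, for its best transcript, on the horizontal axis, and log10(reads + 1) in the library with more reads on the vertical axis; circles are ligand genes, triangles receptor genes, and the dashed line marks 500. Members at 0 reads occur on both sides of the line, and Ccl21a has the most reads with 233 own 50-mers.

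Ligands were set beside receptors they bind in a list of 19 pairs, which is not complete and holds no pair of Ackr1 or Ackr2. Of these pairs, 5 had reads on both genes in W1 and 3 in W2. In W1 the listed pairs were Cxcl9 with Cxcr3, Cxcl12 with Cxcr4 and with Ackr3, and Ccl21a with Ccr7 and with Ackr4. Outside the list, Cxcl10 and Cxcr3, with 4 reads each, and Ccl25 and Ackr4, with 6 reads each, were also read in W1. In W2 they were Cxcl12, by a single read, with Cxcr4 and Ackr3, and Ccl21a with Ackr4. The ligands Ccl7, Cx3cl1, Cxcl16 and Cxcl1 were read in both libraries, and Ccr1, Ccr2, Ccr3, Cx3cr1, Cxcr6 and Cxcr2 in neither. Cxcr6 has at most 80 50-mers of its own in a transcript, and those of Cx3cr1 and Cxcr2 lie mainly on a single transcript. The lack of reads on these 3 receptors is therefore weak evidence on their level.

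Start-site sequence was described for the members with an entry in the RefSeq promoter table (GRCm38.p6), where windows run from 250 bases before to 50 bases after a start. Of the 63 members, 47 had at least 1 such window, with 53 windows in all. Motifs were searched on both strands. The interferon response element ISRE, spelled TTTC, NN, TTTC without gaps, was in 3 of the 53 windows and in 3.44% of all 32851 windows. The GAS element, TTCNNNGAA, was in 3 of the 53 and in 8.30% of all. The kappa-B consensus was in 11 of the 53 and in 4.51% of all; matches on opposite strands may overlap each other. The 11 kappa-B holders were the ligands Cxcl1, Cxcl2, Cxcl3, Cxcl10, Ccl9, Ccl20 and Ccl27a and the receptors Ackr2, Ccr3, Ccr6 and Ccrl2. Ccl2, Ccl5, Ccl7, Ccl11 and Cxcl16 are among the members without a window. Both ISRE and GAS matches lay in the window of Cxcl14. Windows are shown for Cxcl9, the member farthest toward W1, and for Cxcl1 and Cxcl14, which were higher in W2, 5′ to 3′ along the gene, with motif matches in capitals.
Cxcl9 (chr5:92328030-92328329, minus strand; no match in this window): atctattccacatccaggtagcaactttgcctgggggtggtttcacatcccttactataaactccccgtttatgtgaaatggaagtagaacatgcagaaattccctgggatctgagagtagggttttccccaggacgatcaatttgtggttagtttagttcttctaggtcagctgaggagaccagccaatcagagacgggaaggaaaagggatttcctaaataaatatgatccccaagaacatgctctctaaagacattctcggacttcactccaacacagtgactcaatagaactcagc
Cxcl1 (chr5:90890995-90891294, plus strand; kappa-B in capitals): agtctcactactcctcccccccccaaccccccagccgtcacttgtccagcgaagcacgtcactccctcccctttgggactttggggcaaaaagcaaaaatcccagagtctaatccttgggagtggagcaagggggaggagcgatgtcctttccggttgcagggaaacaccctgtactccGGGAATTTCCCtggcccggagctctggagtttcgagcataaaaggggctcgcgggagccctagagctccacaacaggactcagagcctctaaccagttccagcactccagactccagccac
Cxcl14 (chr13:56296502-56296801, minus strand; GAS, then ISRE on the opposite strand, in capitals): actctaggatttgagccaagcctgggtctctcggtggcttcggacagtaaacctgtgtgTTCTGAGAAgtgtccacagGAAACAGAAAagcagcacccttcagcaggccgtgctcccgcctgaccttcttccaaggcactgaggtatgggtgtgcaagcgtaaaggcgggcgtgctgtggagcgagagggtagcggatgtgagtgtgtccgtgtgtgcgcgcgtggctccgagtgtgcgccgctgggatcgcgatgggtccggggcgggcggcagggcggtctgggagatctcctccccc
The kappa-B stretch of Cxcl1 begins 71 bases before the start and holds 2 overlapping matches. In Cxcl14 the GAS match begins 191 bases and the ISRE match 172 bases before the start. A match describes letters in a window, not a site in use.

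Genes that act beside the chemokines were taken from 4 further lists. Of 37 genes that signal below chemokine receptors, 24 were compared, 13 were higher in W1 and 2 in W2, with a median log2 ratio of 1.32. Over all compared genes, 34.7% were higher in W1 and 32.9% in W2, and the median was -0.07. The G protein subunit genes Gng11 (588 TPM in W1, 36.0 TPM in W2) and Gnai2 (92.0 TPM in W1, 43.1 TPM in W2) had the highest levels among those higher in W1. Gng5 (4.99 TPM in W1, 13.8 TPM in W2) and Gnb2 (0 TPM in W1, 1.66 TPM in W2) were higher in W2. The arrestin genes Arrb1 and Arrb2 were listed at 0 in both. Arrb2 has at most 426 50-mers of its own in a transcript, so its listing at 0 is weak evidence on its level.

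Genes of heparan sulfate, the surface sugar that holds chemokines in place, had a median on the other side. Of 28 genes, 21 were compared, 5 were higher in W1 and 12 in W2, where the shares over all compared genes were 34.7% and 32.9%, with a median log2 ratio of -1.08. The core protein genes Sdc4 (51.7 TPM in W1, 2502 TPM in W2) and Sdc2 (0.936 TPM in W1, 74.5 TPM in W2) were higher in W2. Gpc1 (51.7 TPM in W1, 19.5 TPM in W2) and the sulfotransferase gene Hs3st3b1 (24.8 TPM in W1, 11.3 TPM in W2) were higher in W1.

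Among 20 genes of other leukocyte attractants and their receptors, 8 were compared, 3 were higher in W1 and 1 in W2, with a median log2 ratio of 0.77. Ch25h, which makes the precursor of an oxysterol attractant, stood at 910 TPM in W1 and 8.50 TPM in W2, and Gpr183, the receptor of that oxysterol, was listed at 0 in both. S1pr1, the sphingosine 1-phosphate receptor gene, stood at 902 TPM in W1 and 2.91 TPM in W2. Mif, a cytokine that also binds Cxcr2 and Cxcr4, was higher in W2 (14.5 TPM in W1, 47.3 TPM in W2). Of 22 receptors of cytokines and microbial products that induce chemokines, 16 were compared, 7 were higher in W1 and 4 in W2, with a median log2 ratio of 0.59. The shares of calls in both of these lists are to be read beside the 34.7% and 32.9% of all compared genes higher in W1 and in W2. The TNF family receptor genes Tnfrsf11a (52.5 TPM in W1, 8.92 TPM in W2) and Tnfrsf1b (33.5 TPM in W1, 0 TPM in W2) were higher in W1. Tlr2 (4.93 TPM in W1, 56.0 TPM in W2) and Il1rap (0 TPM in W1, 23.9 TPM in W2), a subunit of the interleukin-1 receptor, were higher in W2. Endothelial markers were higher in W1 and basal, luminal and fibroblast markers in W2, as given above, and their part in these 4 lists was not tested.

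**Figure D5:**
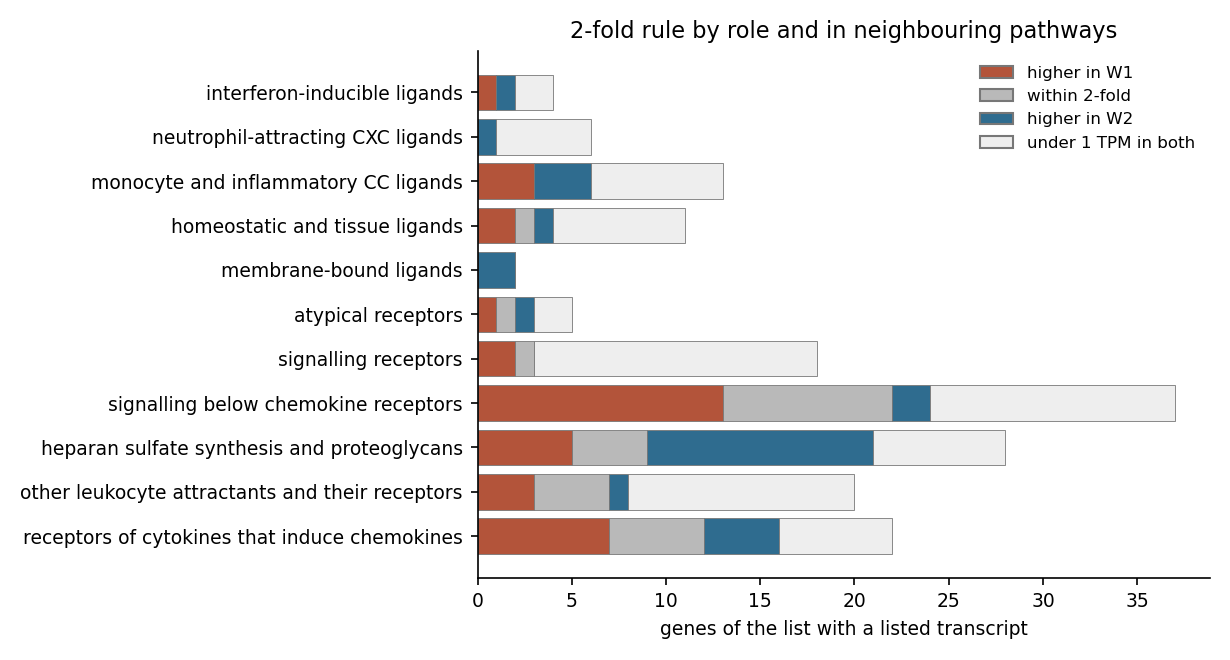
Number of genes on the horizontal axis in each of 7 role groups of the family and 4 neighbouring lists, split into those higher in W1, within 2-fold, higher in W2 and under 1 TPM in both libraries, from left to right. The signalling list has 13 genes higher in W1 and the heparan sulfate list 12 higher in W2.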

How the data were processed

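RNA of sorted mammary cells was measured in 2 libraries, W1 and W2. The authors deposited TPM per transcript, scaled to the same total in each library, and FPKM per transcript, the same quantities before that scaling. The submitters' processing notes list Bowtie 0.12.2 and 2 builds, GRCm38 and mm8, with no role for either. The library kit is stranded, per the labels; the counting tool, whether it used strand, and its annotation are not stated. Of 137767 listed transcripts, 137654 matched GENCODE M21 (GRCm38) by identifier and were summed per gene. FPKM times transcript length was a whole multiple of a step fixed within each library, and dividing by it gave the reads; 98.5% of values above 0 in W1 and 98.1% in W2 came out whole within 0.1 read. PCR reads without molecular identifiers are not independent molecules. The comparison took genes that reached 1 TPM in either library, on log2(TPM + 1), which understates ratios of low genes, at 2-fold. With 1 library each there is no model and no p-value. Own sequence was counted as 50-mers found in no other listed transcript. Every member with a read is named, and 1 member without reads is not reported here by name; in other lists the text names the 2 compared genes with the highest TPM in each direction; Arrb1, Arrb2 and Gpr183 were added after their values were seen. The members and lists were chosen with earlier results of these data known. The tables hold 0 other value columns. Protein sequences were not used here. Steps were tested on simulated data. Tables were computed in Python 3.11.15 (pandas 2.3.3, numpy 2.4.6), intervals with scipy 1.17.1 and figures with matplotlib 3.10.9.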

Additional observations from a re-analysis of the deposited data

Results flagged for a closer look

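Reads were found on copies of family members that do not carry a member's symbol, while the member itself was listed at 0 in both libraries. These genes are outside the comparisons of the family. Gm12407, a pseudogene that shares sequence with Ccl19, had 0 reads in W1 and 641 in W2. Ccl19-ps3 had 1 read in W1 and 134 in W2, and Gm2564 had 0 in W1 and 8 in W2. Gm10591, which shares its coding sequence with Ccl21b, had 163 reads in W1 and 68 in W2. It also shares 253 of its 353 50-mers with Ccl21a, which was not at 0 and had 26828 reads in W1 and 20018 in W2. The floor is 3 reads per library.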

How the results depend on the processing

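Each value was recomputed with pseudocounts of 0.1 and 5 TPM, without a filter on low values, with a filter of 20 reads, on FPKM, without mitochondrially encoded and ribosomal protein genes, with the highest transcript of each gene only and, chosen after seeing the data, with protein-coding transcripts only. Part of the outcome was fixed in advance: changing the filter leaves a member's ratio as it was, and a member with 0 reads in a library cannot reverse. Of 159 ratios of single members under these alternatives, 0 reversed and 153 kept their call under the 2-fold rule. The exceptions, as log2 ratios of W1 over W2, were Cxcr4 with the lower pseudocount (1.22), Ccl25 (0.44), Ccr10 (0.76) and Cxcl12 (0.37) with the higher pseudocount, Cx3cl1 on FPKM (-0.96) and Ackr4 with the highest transcript only (-1.02), which gave 2 receptor genes higher in W2 in place of 1. The median log2 ratio of the compared members was 0.43, and it was -0.41 with the filter of 20 reads and 0.78 on FPKM; the filter of 20 reads keeps fewer members and moved the median of all compared genes to -0.25, and FPKM moved the median of all compared genes to 0.23 where it was -0.07. Leaving out mitochondrially encoded and ribosomal protein genes moved that median to -0.26. With protein-coding transcripts only, Ccl2, Ccl25 and Cxcl1 have no value, and 7 members were higher in W1 and 8 in W2. No paired analysis was possible because no group has more than 1 library, and leaving out a library leaves nothing to compare. Depth limits members with few reads: 3 reads correspond to 1.24 TPM in W1 and 1.23 TPM in W2 on the Ccl7 transcript.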
